A study of Homo sapiens and Mus musculus with 16 samples.

Results

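The cytosolic ribosomal protein genes were followed member by member through P-body-seq, in which P-bodies were sorted from lysed cells and their RNA was sequenced beside RNA of the cytoplasm. Per the study's methods, the cytoplasm fraction was a resuspended pellet of the lysate, freed of nuclei and taken before sorting. P-bodies were sorted from this fraction, so the cytoplasm libraries are not free of them. Enriched and depleted below mean relative to that fraction. Members were taken by symbol, as genes named RPL or RPS with a number together with RPLP0, RPLP1, RPLP2 and RPSA, leaving out the RPS6 kinases and the Y-linked copies of RPS4. The rule found 83 of 22286 genes in the human table, of which 51 encode large subunit and 32 small subunit proteins, and 84 of 15881 genes in the mouse table, with 51 and 33. The tables shared 81 symbols, ignoring case. RPL26L1 and RPS3A were in the human table only, and Rpl10l, Rps3a1 and Rps4l in the mouse table only. Each of 4 cell types gave 2 P-body and 2 cytoplasm libraries, 16 in all. The human cells were HEK293T, an embryonic kidney line, together with liver bud progenitors and day 20 neurons, both differentiated from UCLA4 embryonic stem cells. The mouse cells (mESC) were embryonic stem cells of the KH2 line, kept in serum with LIF. Every group, cytoplasm included, came from cells carrying GFP-LSM14A, a tagged P-body protein used for sorting, which was delivered by a lentiviral vector with an EF1a promoter in HEK293T and mESC and by integration at the AAVS1 locus in the human stem cells. No treatment distinguished the groups. The labels give total RNA for HEK293T and mESC and polyA RNA for liver bud progenitors and neurons, so that cell type and the kind of RNA sequenced cannot be told apart between those pairs. The labels do not say that the 2 libraries of a group came from separate cultures (the study speaks of biologically independent samples), so p-values measure the spread between these libraries.

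A ribosome consists of a small subunit, which reads the mRNA, and a large subunit, which joins amino acids, and most of its proteins are needed in equal numbers. Their mRNAs are short, abundant and usually heavily translated, and many begin with a cytosine followed by a run of pyrimidines, the 5′ terminal oligopyrimidine (TOP) motif, through which their translation is switched with growth signals. P-bodies are cytoplasmic condensates of mRNA and proteins of mRNA repression and decay, and RNA in them is largely outside the pool of translating ribosomes.

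The pyrimidine start separates some members from their paralogs, which is why the following starts are shown. Each line holds 10 bases before and 20 bases from the RefSeq transcript start on, in GRCh38.p14, 5′ to 3′ on the gene's own strand, with the pyrimidine run at the start in capitals. A run was marked when the first base was C and at least 4 pyrimidines followed it.
RPL7L1 (chr6:42879606-42879635, plus strand): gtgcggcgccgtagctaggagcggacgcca
RPL22 (chr1:6199576-6199605, minus strand): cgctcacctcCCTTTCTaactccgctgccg
RPL22L1 (chr3:170870176-170870205, minus strand): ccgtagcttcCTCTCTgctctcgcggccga
RPL26 (chr17:8383174-8383203, minus strand): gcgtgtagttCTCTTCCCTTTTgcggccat
RPL26L1 (chr5:172958719-172958748, plus strand): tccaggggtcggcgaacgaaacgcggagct
RPS27 (chr1:153990752-153990781, plus strand): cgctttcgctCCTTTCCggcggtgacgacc
RPS27L (chr15:63157458-63157487, minus strand): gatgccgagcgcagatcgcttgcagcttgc
RPL39 (chrX:119791611-119791640, minus strand): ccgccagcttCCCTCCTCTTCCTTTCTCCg
RPS12 (chr6:132814559-132814588, plus strand): cggatgaggcCTCTTTCCCTgccgccgccg
RPL22, RPL26, RPS27 and RPL39 begin with a run, as does RPS12, the member furthest below the cytoplasm in HEK293T. Of the paralogs shown, RPL22L1 begins with a short run, whereas RPL7L1, RPL26L1 and RPS27L have none. A window was matched for 66 of 83 human members, and 47 of them (71.2%) had a run at a listed start, against 994 of 16108 genes of the human table with a window (6.17%). A run is a description of these letters and not evidence that the start is used. Likewise, the lack of a run at a listed start is not evidence that the motif is absent.

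Totals ranged from 6368953 to 17972284 counts per library, and values are given below in CPM, counts scaled to a common library total. The floor was set at 3 counts, which came to 0.167 CPM in the deepest and 0.471 CPM in the shallowest library. Replicate libraries differed by a chi-square of 2.15 to 5.72 per gene in 6 groups, of 6.69 in neuron cytoplasm and of 24.8 in neuron P-bodies. The share of ribosomal RNA genes was lower in P-bodies (3.09% to 13.4% per library) than in cytoplasm (9.63% to 24.9%), within every cell type. All 8 mESC markers and all 8 neuron markers were at 1 CPM or more in their own cells. Of 8 liver bud markers 7 had a mean of 1 CPM or more in each liver bud fraction (HHEX was at 0.524 CPM in P-body replicate 1) and ALB did not, and all 5 pluripotency markers were present there too, at a summed 1378 to 1409 CPM in cytoplasm and 2389 to 2409 CPM in P-bodies.

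In HEK293T, nearly the whole ribosomal protein gene set was lower in P-bodies than in cytoplasm. Members took 0.794% and 0.807% of the counts in the P-body libraries and 2.21% and 2.30% in the cytoplasm libraries, so the fractions did not overlap. Of 83 members 79 were depleted and 1 was enriched (edgeR quasi-likelihood test, Benjamini-Hochberg adjusted p under 0.05 over all genes), where 22.8% of all genes tested were depleted and 19.3% enriched. The median member changed by -1.62 on the log2 scale, against -0.01 for the median gene. The 3 members that did not pass the test, RPL22L1, RPL39L and RPL3L, were paralogs of low count.

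**Figure D1:**
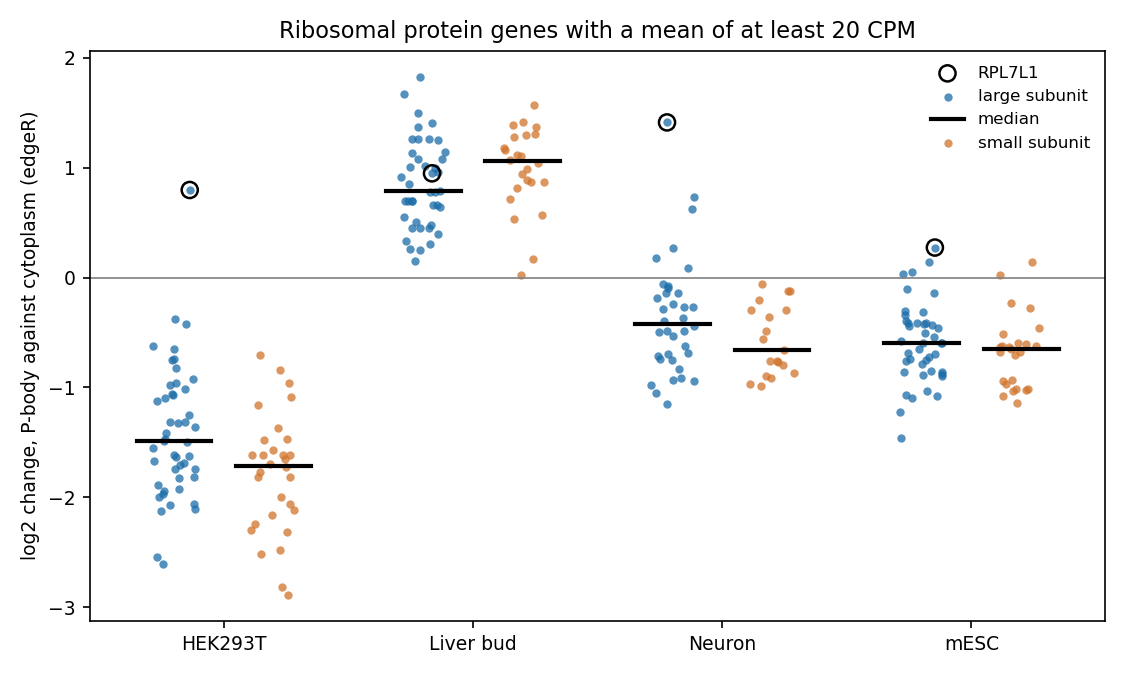
Log2 change of each ribosomal protein gene with a mean of at least 20 CPM, P-body against cytoplasm, by cell type. Each point is a gene, blue for the large and orange for the small subunit, black bars are medians and the ringed point is RPL7L1. Points lie below 0 in HEK293T apart from RPL7L1, above 0 in liver bud progenitors, and mostly below 0 in neurons and mESC.

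The deepest depletion in HEK293T was that of RPS12, a small subunit protein, which had 46.4 and 45.9 CPM in P-bodies and 355 and 328 CPM in cytoplasm (log2 change -2.89 ± 0.07 SE, adjusted p = 7.39e-41). RPS13, of the same subunit, had 12.7 and 13.8 CPM in P-bodies and 97.1 and 90.0 CPM in cytoplasm, a log2 change of -2.82 ± 0.11. RPL9, a large subunit protein, had 25.0 and 23.8 CPM against 154 and 144 CPM, a log2 change of -2.61 ± 0.09. For each of these genes both P-body libraries lay far below both cytoplasm libraries. At the other end, RPL5, which carries 5S ribosomal RNA into the large subunit, was reduced least among the depleted members, with 619 and 640 CPM in P-bodies and 848 and 784 CPM in cytoplasm (log2 change -0.37 ± 0.05, adjusted p = 6.35e-09). RPL38, another large subunit protein, had 101 and 99.5 CPM in P-bodies and 133 and 135 CPM in cytoplasm, and changed by -0.42 ± 0.07, a call that was lost when all human libraries entered a single fit (-0.29). The members with the most cytoplasm CPM were RPS3, RPL4 and RPL41, which changed by -1.47, -0.92 and -1.55, so the members most counted in cytoplasm were not the most depleted.

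RPL7L1, a paralog of RPL7 and relative of a yeast ribosome assembly factor, was the exception. It had 171 and 170 CPM in HEK293T P-bodies and 99.7 and 96.4 CPM in cytoplasm, a log2 change of 0.80 ± 0.07 (adjusted p = 1.48e-15). It was the 1 member beyond the fences of 1.5 interquartile ranges around the members' quartiles, which lay at -3.19 and 0.12 over the 77 members with a mean of at least 20 CPM. Its parent RPL7 had 92.2 and 89.3 CPM in P-bodies and 301 and 275 CPM in cytoplasm, a log2 change of -1.67 ± 0.07.

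In mESC the same direction was seen with a smaller size. Members took 0.718% and 0.750% of the counts in P-bodies and 1.33% in each cytoplasm library, and 73 of 84 were depleted and 2 enriched, against 20.6% and 25.8% of all genes. The median member changed by -0.65, against -0.11 for the median gene. With library sizes alone in place of TMM scaling, the median of all genes moved to -0.51 and that of members to -1.05. Such a change shifts all genes by nearly the same amount, so the gap of -0.53 between them could hardly move. With genes of low count left out (filterByExpr) the gap was -0.67. Among genes with at least 20 CPM, the medians were -0.63 for members and 0.28 for all genes.

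Rpl39, a very small protein of the large subunit, was reduced most among mouse members with at least 20 CPM, with 22.4 and 17.6 CPM in P-bodies and 59.4 and 50.8 CPM in cytoplasm (log2 change -1.46 ± 0.12, adjusted p = 1.87e-10). Rplp1, an acidic protein of the ribosomal stalk, had 15.5 and 15.2 CPM against 36.8 and 35.2 CPM and changed by -1.23 ± 0.12. Rps4x, a small subunit protein, had 109 and 85.4 CPM against 208 and 222 CPM and changed by -1.14 ± 0.07. The P-body libraries of all 3 genes lay below the cytoplasm libraries. Rpl4, among the members with the most cytoplasm CPM, was hardly below cytoplasm, at -0.10 ± 0.04, and leaving out mESC P-body replicate 1 (-0.08) or replicate 2 (-0.09) ended its call, as did TMM scaling without the members (-0.09) or leaving out ribosomal RNA genes (-0.09). Rpsa, also among them, changed by -0.63 ± 0.04.

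The 2 enriched mouse members were Rpl7l1 and Rps2. Rpl7l1 had 117 and 103 CPM in P-bodies and 91.0 and 90.9 CPM in cytoplasm, a log2 change of 0.27 ± 0.07 (adjusted p = 0.00219), and lay just past the upper fence of 0.27. Rps2, a small subunit protein near the mRNA entry channel, had 561 and 608 CPM against 510 and 549 CPM, and changed by 0.14 ± 0.05 (adjusted p = 0.0124). For both genes the P-body libraries lay above the cytoplasm libraries. Neither direction held with library sizes alone, which gave -0.13 for Rpl7l1 and -0.26 for Rps2 where the median gene was at -0.51. Leaving out mESC P-body replicate 1 ended the call of Rpl7l1 (0.18), and leaving out P-body replicate 2 (0.11) or cytoplasm replicate 1 (0.09) ended that of Rps2. Rpl29, the third highest, was at 0.14 ± 0.09 and did not pass the test. It passed it without P-body replicate 1 (0.29) or cytoplasm replicate 1 (0.27), and stood at -0.26 with library sizes alone.

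Liver bud progenitors showed the opposite. Members took 1.44% and 1.35% of the counts in P-bodies and 0.805% and 0.796% in cytoplasm, again without overlap. Of 83 members 72 were enriched, against 21.4% of all genes, and 0 were depleted, against 17.1%. The count of depleted members was also 0 with DESeq2, and 0 members were lower at an unadjusted p under 0.05 with either tool. The median member rose by 0.94, against -0.09 for the median gene. For genes with at least 20 CPM, these medians were 0.93 and 0.33. The sum of the 5 pluripotency markers was also higher in these P-bodies than in cytoplasm (ranges given above), most of it through L1TD1 (1408 and 1334 CPM against 509 and 475 CPM), while POU5F1 overlapped between the fractions (82.5 and 95.4 CPM against 87.3 and 84.3 CPM). The summed liver bud markers were lower in P-bodies, at 197 to 205 CPM against 398 to 415 CPM. Most of this came through APOB (107 and 118 CPM against 310 and 289 CPM). HNF4A, FOXA2 and AFP were also lower, TTR was higher (47.5 and 44.5 CPM against 34.9 and 40.4 CPM), and PROX1 overlapped. The same list summed to 265 to 269 CPM in neuron P-bodies, mostly through PROX1 (256 and 263 CPM). The sum of 5 fibroblast markers was lower in liver bud P-bodies, at 85.3 to 91.3 CPM against 213 to 228 CPM. All these marker values are scaled by library totals alone, unlike those of members. The TMM factors of the liver bud libraries were 0.935 and 0.940 in P-bodies and 1.07 and 1.06 in cytoplasm. Applying them raises P-body values against cytoplasm, so the overlaps of POU5F1 and PROX1 are stated for library totals only. The processed copies of ribosomal protein genes listed in the table equalled 4.64% and 4.65% of the members' counts in P-bodies against 4.12% and 3.98% in cytoplasm. The part of these in the result was not tested, apart from a fit with the copies added to their parents, in which 72 members were again enriched.

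**Figure D2:**
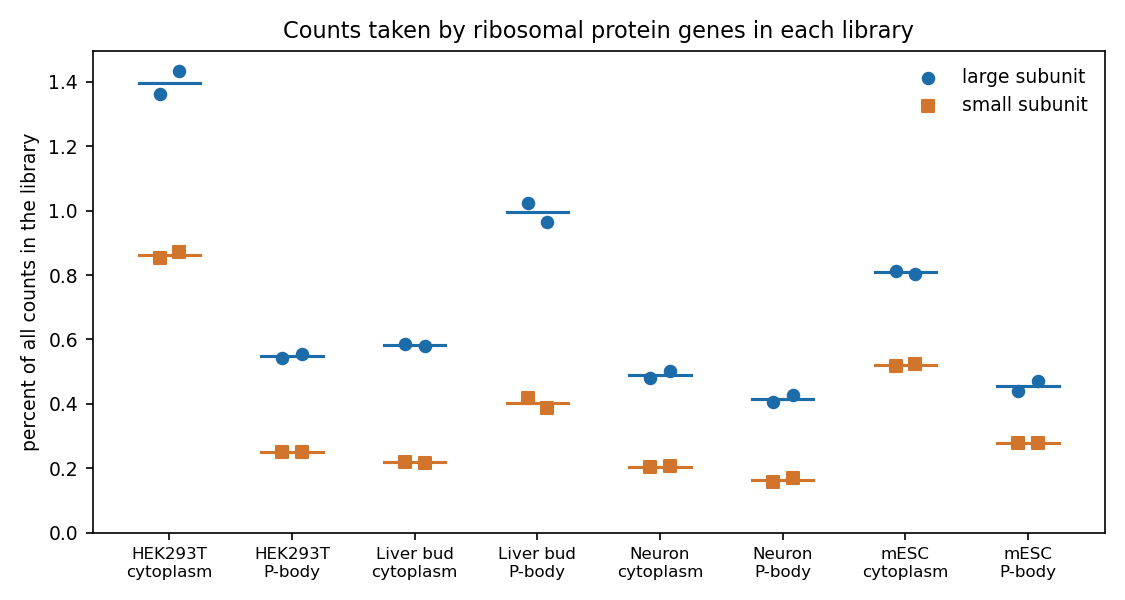
Percent of all counts taken by large subunit (blue circles) and small subunit (orange squares) genes in each library, with lines at the means of 2 libraries. Both subunits took less in HEK293T and mESC P-bodies and more in liver bud P-bodies than in the matching cytoplasm, and the neuron fractions differed least.

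RPL34, a large subunit protein, had the largest rise among liver bud members with at least 20 CPM, from 18.6 and 23.3 CPM in cytoplasm to 84.7 and 65.1 CPM in P-bodies (log2 change 1.83 ± 0.12, adjusted p = 4.89e-21). RPL6, of the same subunit, rose from 409 and 399 CPM to 1340 and 1224 CPM, by 1.67 ± 0.05. RPS3A, of the small subunit, rose from 66.0 and 59.2 CPM to 197 and 175 CPM, by 1.57 ± 0.08. The P-body values of these genes were well above both cytoplasm values. RPL4, a long-tailed protein lining the exit tunnel, led the cytoplasm in CPM and rose from 970 and 958 CPM to 2179 and 2085 CPM, by 1.15 ± 0.04. RPL3, next in cytoplasm CPM, rose by 0.45 ± 0.05, and RPL5 by 1.13 ± 0.05.

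Members with small liver bud changes did not pass the test. RPL22 had 24.3 and 26.0 CPM in P-bodies and 21.1 and 24.2 CPM in cytoplasm, a log2 change of 0.15 ± 0.15 (adjusted p = 0.483), with P-body values hardly above those of cytoplasm. RPS15 was at 0.17 ± 0.16. RPL28, RPL32, RPL38 and RPLP2 also missed the threshold, as did the low-count paralogs RPL22L1, RPL26L1, RPL39L and RPL3L. No member lay beyond the fences, at -0.15 and 1.97. RPL7L1, enriched against the other members in HEK293T, stood within the liver bud distribution, with 101 and 103 CPM in P-bodies and 56.2 and 49.8 CPM in cytoplasm (0.95 ± 0.09, adjusted p = 2.00e-14).

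In neurons the change was small and mixed. Members took 0.565% and 0.596% of the counts in P-bodies and 0.684% and 0.709% in cytoplasm. Of 83 members 37 were depleted and 3 enriched, against 14.1% and 14.6% of all genes, and 43 did not pass the test. The median member changed by -0.44, against 0.19 for the median gene. With library sizes alone these medians were -0.28 and 0.35, and the gap of -0.63 was again nearly fixed by the kind of change. With filterByExpr the gap was -0.36. Among genes with at least 20 CPM, the medians were -0.49 for members and -0.16 for all genes. The number depleted was 21 without neuron cytoplasm replicate 1 and 24 without replicate 2, and the number enriched was 1 without cytoplasm replicate 1 and 6 without P-body replicate 1. The 5 markers listed for neural progenitors summed to 3493 and 3682 CPM in neuron P-bodies and to 1514 to 1631 CPM in cytoplasm, mostly through the proliferation genes MKI67 (1872 and 2035 CPM against 997 and 1090 CPM) and TOP2A (826 and 898 CPM against 175 and 196 CPM). PAX6 (413 and 432 CPM against 77.6 and 89.9 CPM) and SOX2 (250 and 211 CPM against 66.4 and 61.7 CPM) were also higher in P-bodies. NES was lower in P-bodies, at 133 and 105 CPM against 198 and 194 CPM. The sum of these markers had the same direction in HEK293T (3481 to 3542 CPM against 2260 to 2332 CPM). Their part in the result was not tested.

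RPL7A, a large subunit protein, was reduced most among neuron members with at least 20 CPM, with 10.6 and 16.5 CPM in P-bodies and 30.0 and 30.2 CPM in cytoplasm (log2 change -1.15 ± 0.25, adjusted p = 0.00365). RPL24, of the subunit interface, had 24.8 and 27.7 CPM against 53.4 and 55.2 CPM, a change of -1.05 ± 0.17. RPS23, of the decoding site, had 49.98 and 56.8 CPM against 108 and 103 CPM, a change of -0.99 ± 0.13. The fractions did not overlap for these 3 genes. Among the members with the most cytoplasm CPM, RPL3 changed by -0.69 ± 0.08 and RPL4 by -0.49 ± 0.08, while RPS3 changed by -0.29 ± 0.09 and lost its call with RLE size factors (-0.24), library sizes alone (-0.13), filterByExpr (-0.19) or without cytoplasm replicate 1 (-0.22).

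RPL7L1 was again the 1 member past the fences, at -1.67 and 0.74, with 56.9 and 59.6 CPM in neuron P-bodies and 22.4 and 21.4 CPM in cytoplasm (log2 change 1.41 ± 0.17, adjusted p = 2.66e-05). The other enriched members were RPLP2, of the stalk, with 34.9 and 50.04 CPM against 25.9 and 25.2 CPM (0.73 ± 0.21, adjusted p = 0.0165), and RPL38, with 47.0 and 60.9 CPM against 32.6 and 37.7 CPM (0.62 ± 0.18, adjusted p = 0.0184). Both P-body libraries were above both cytoplasm libraries for each. The call of RPLP2 was lost without neuron P-body replicate 2 (0.45), cytoplasm replicate 1 (0.74) or cytoplasm replicate 2 (0.70), and that of RPL38 without cytoplasm replicate 1 (0.50). RPL7L1 was the 1 of 81 shared symbols called enriched in all 4 cell types, though in mESC not with library sizes alone. Of 12616 symbols tested in all 4 cell types, members or not, 10.2% were enriched in each. The number of shared members depleted in all 4 was 0, against 5.26% of these symbols, and 33 were enriched in liver bud progenitors and depleted in the other 3, against 0.872%.

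P-body enrichment was then compared between neurons and liver bud progenitors as an interaction over their 8 libraries, the cell types that share the polyA label. Enrichment was lower in neurons for 64 of 83 members, against 8.5% of all genes, and higher for 0 members, against 9.21%. At an unadjusted p under 0.05, 1 member was higher with edgeR and 1 with DESeq2, which also called 0 higher. The median difference was -1.38 on the log2 scale, against 0.23 for the median gene. At 20 CPM or more it was -1.41 for members and -0.05 for all genes. With library sizes alone the median difference over all members tested was -1.03 against 0.58. There, 2 members were called higher and 55 lower. RPL26, near the exit tunnel, had the largest difference at -2.49 ± 0.29 (adjusted p = 2.44e-05), with 68.2 and 52.9 CPM in liver bud P-bodies against 26.6 and 20.2 CPM in cytoplasm, and 6.18 and 7.05 CPM in neuron P-bodies against 14.5 and 14.3 CPM in cytoplasm. RPS3A differed by -2.35 ± 0.17 and RPS23 by -2.27 ± 0.13. RPLP2 (0.59 ± 0.31), RPL7L1 (0.46 ± 0.17, adjusted p = 0.0810) and RPL38 (0.35 ± 0.23) stood at the upper end and did not pass the test, although RPL7L1 passed it with library sizes alone (0.82) and with filterByExpr (0.60), and RPLP2 with library sizes alone (0.95) and without neuron P-body replicate 1 (0.74).

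The cytoplasm of neurons and liver bud progenitors, which enters the comparisons above as their control, was also compared directly. Of 82 members 37 were higher in neurons and 14 lower, against 26% and 25.8% of all genes, and the median member was at 0.20 where the median gene was at -0.16. With library sizes alone, 16 were higher and 31 lower, and the member median was -0.18 against -0.52. The direction of the members thus depended on the scaling. Their distance from the median gene was 0.36 and 0.34, which a change of scaling hardly moves, and 0.17 with filterByExpr. Among genes with at least 20 CPM, the medians were 0.27 for members and 0.17 for all genes. RPL18 had the largest difference, with 256 and 213 CPM in neurons and 78.2 and 83.3 CPM in liver bud progenitors (1.54 ± 0.09). RPL37 was also among the highest, at 1.11 ± 0.13. The lowest in neurons were RPL7L1, with 24.2 and 23.1 CPM against 52.4 and 46.6 CPM (-1.06 ± 0.14), RPL6 (-1.06 ± 0.08) and RPS27A (-1.02 ± 0.13), which is made as a fusion with ubiquitin.

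Taking members at 20 CPM or more in each of the cell types compared, the order of the P-body changes was most alike between HEK293T and neurons, with a Spearman rho of 0.74 over 55 genes. It was 0.52 between HEK293T and mESC over 66 genes and 0.36 between neurons and mESC over 52 genes. Against liver bud progenitors rho was -0.30 for HEK293T (66 genes), -0.13 for neurons (54 genes) and -0.16 for mESC (61 genes). These are descriptions across genes, which share libraries and scaling, and carry no p-value. HEK293T and mESC carry the total RNA label and the other cell types the polyA label. The part of the kind of RNA in these orders was not tested.

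**Figure D3:**
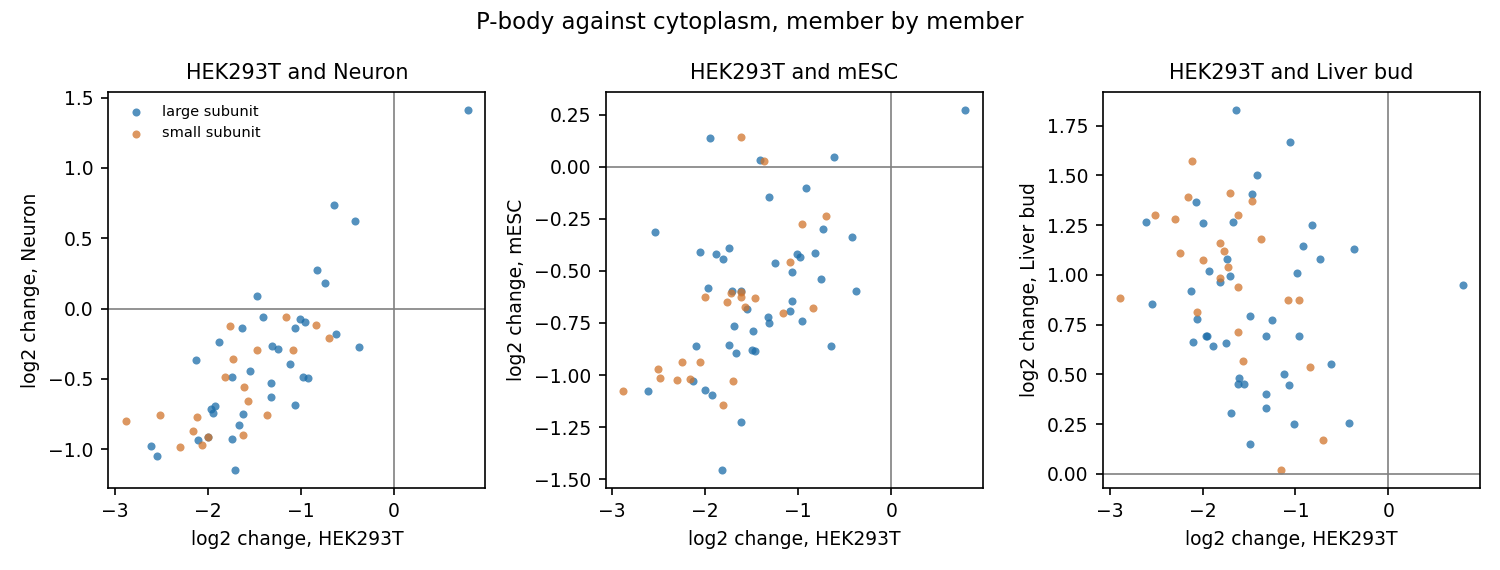
Log2 change, P-body against cytoplasm, in HEK293T (x axes) and in neurons, mESC and liver bud progenitors (y axes) for members with at least 20 CPM in both. Points are genes, blue for the large and orange for the small subunit. The points rise together for neurons and, more loosely, for mESC, and do not for liver bud progenitors.

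By their medians, small subunit genes were displaced further than large subunit genes in the direction of each cell type. Among members with at least 20 CPM, the medians of the large and the small subunit were -1.49 and -1.71 for HEK293T, 0.79 and 1.06 for liver bud progenitors, -0.42 and -0.66 for neurons, and -0.60 and -0.65 for mESC. In HEK293T the ratio of large to small subunit counts was 2.17 and 2.22 in P-bodies and 1.596 and 1.65 in cytoplasm. In neurons it was 2.55 and 2.51 against 2.37 and 2.41, and in liver bud progenitors 2.45 and 2.49 against 2.66 and 2.67. The fractions did not overlap in any of these 3 cell types. In mESC, with 1.58 and 1.68 against 1.57 and 1.54, the gap was as small as the spread between replicates. With 2 libraries against 2 an exact permutation test cannot give a two-sided p below 0.333, so no test is given. The order of the neuron medians turned when members with at least 100 CPM were taken (large minus small -0.12), and that of mESC turned without P-body replicate 1 (-0.015). Of the small subunit genes, 32 of 32 were depleted in HEK293T, 30 of 33 in mESC and 18 of 32 in neurons, and 30 of 32 were enriched in liver bud progenitors. For the large subunit these numbers were 47 of 51, 43 of 51, 19 of 51 and 42 of 51.

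Members that work side by side on the ribosome did not always move together. The stalk and 5S members in this paragraph were picked after their values had been seen. The stalk, which recruits translation factors, is built from RPLP0 with RPLP1 and RPLP2. The changes of RPLP0 were all called, at -1.62 (HEK293T), 0.45 (liver bud), -0.75 (neuron) and -0.60 (mESC). RPLP1 changed by -1.61, 0.48 and -1.23 in HEK293T, liver bud progenitors and mESC, and stood at -0.60 in neurons without passing the test. RPLP2 was at -0.65 in HEK293T and -0.86 in mESC, both called, at 0.13 in liver bud progenitors, which did not pass, and at 0.73 in neurons. Its human changes were thus nearer to 0 than those of RPLP0 in HEK293T and opposite to them in neurons, differences that were not tested. RPL5 and RPL11, the protein partners of 5S ribosomal RNA, changed by -0.37 and -1.88 in HEK293T, by 1.13 and 0.64 in liver bud progenitors and by -0.60 and -0.42 in mESC. In neurons RPL5 was at -0.27 and RPL11 at -0.24, of which RPL5 passed the test.

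Paralog ratios were computed in each library from CPM with 0.5 CPM added, which cancels most of the scaling. RPL7L1, which lies on chr6 at 42879616 to 42889925 (hg38, GENCODE 44) and has 765 coding bases against 744 in RPL7, is described first. The log2 ratio of RPL7L1 to RPL7 was 0.89 and 0.92 in HEK293T P-bodies and -1.59 and -1.51 in cytoplasm. In neurons it was 0.31 and -0.09 in P-bodies and -2.06 and -2.19 in cytoplasm, and in mESC -0.08 and 0.00 against -1.19 and -1.21. The P-body libraries were above the cytoplasm libraries in each of these cells. In liver bud progenitors they were below, at -1.62 and -1.49 against -1.19 and -1.29. Per base of coding sequence the HEK293T means were 0.87 ± 0.02 (SD, n = 2) in P-bodies and -1.59 ± 0.06 in cytoplasm, so counts of the paralog exceeded those of the parent in P-bodies and stood well below them in cytoplasm.

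**Figure D4:**
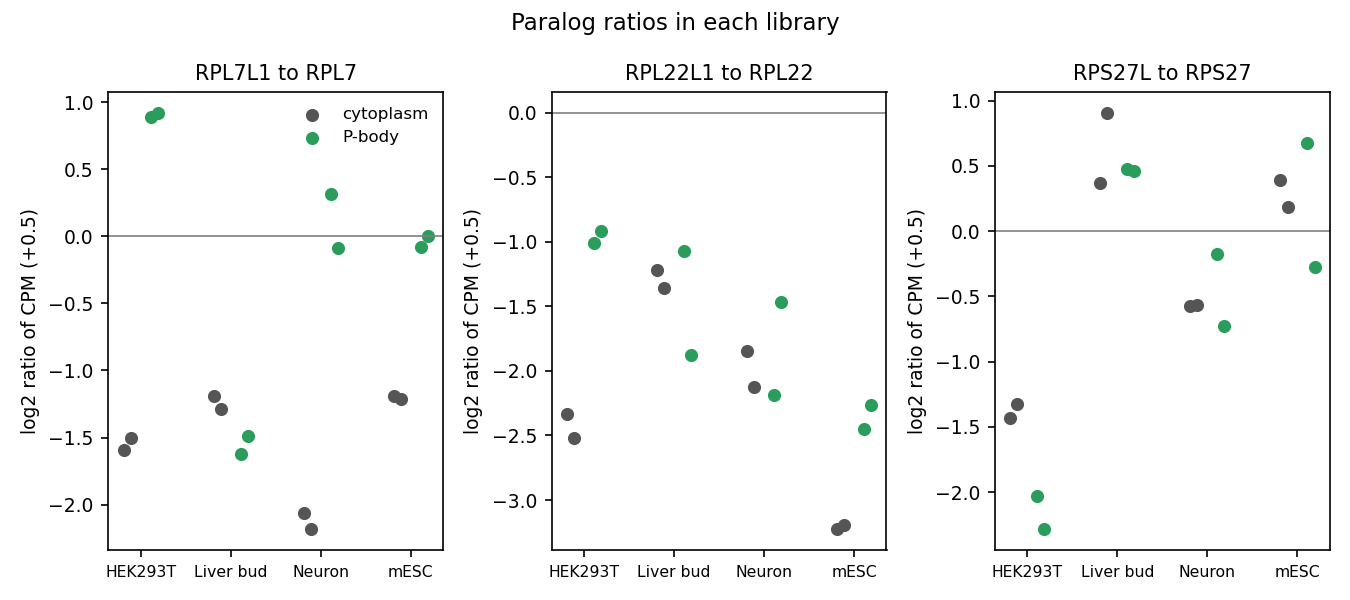
Log2 ratio of paralog to parent CPM, with 0.5 CPM added, in each library for RPL7L1 to RPL7, RPL22L1 to RPL22 and RPS27L to RPS27. Grey points are cytoplasm and green points P-body libraries, 2 of each per cell type, and the horizontal line marks equal CPM. The green points lie above the grey for RPL7L1 in HEK293T, neurons and mESC and below them in liver bud progenitors.

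RPL22L1, a paralog of the RNA-binding protein RPL22, had estimates near 0 in HEK293T, liver bud progenitors and mESC, and a wide error in neurons. It had 10.9 and 12.5 CPM in HEK293T P-bodies and 11.9 and 11.7 CPM in cytoplasm, a log2 change of 0.00 ± 0.17. Its changes were 0.01 ± 0.24 (liver bud), -0.21 ± 0.52 (neuron) and -0.02 ± 0.23 (mESC), and none passed the test. Not passing is no evidence of equal amounts, least of all in neurons. RPL22 itself changed by -1.49 ± 0.11 in HEK293T and -0.88 ± 0.09 in mESC, and by -0.42 ± 0.25 in neurons without passing. The log2 ratio of RPL22L1 to RPL22 was therefore higher in P-bodies in HEK293T, at -1.01 and -0.92 against -2.34 and -2.52, and in mESC, at -2.45 and -2.26 against -3.23 and -3.19. It overlapped between fractions in liver bud progenitors (-1.07 and -1.87 against -1.22 and -1.36) and neurons (-2.19 and -1.46 against -1.85 and -2.13).

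RPS27L went the other way in HEK293T. It had 4.11 and 3.77 CPM in P-bodies and 20.4 CPM in each cytoplasm library (log2 change -2.37 ± 0.19), while RPS27 changed by -1.48 ± 0.12, so their log2 ratio was -2.03 and -2.28 in P-bodies and -1.43 and -1.33 in cytoplasm. In the other cell types the ratio overlapped between fractions. RPL26L1 changed by -1.33 ± 0.24 in HEK293T against -2.07 ± 0.09 for RPL26, with log2 ratios of -2.90 and -2.83 in P-bodies and -3.74 and -3.66 in cytoplasm. In liver bud progenitors RPL26L1 had 8 to 20 counts and in neurons 6 to 14, and neither change passed the test. RPL39L had 1 to 13 counts per library in HEK293T and missed the threshold there (adjusted p = 0.0542), which it passed with library sizes alone (-2.24) and without P-body replicate 2 (-3.43) or cytoplasm replicate 1 (-2.49). In mESC Rpl39l had 4 and 7 counts in P-bodies and 19 and 12 in cytoplasm (adjusted p = 0.0471), a call lost with DESeq2 or without P-body replicate 1 or cytoplasm replicate 1. Mouse Rpl10l did not pass the test (-0.23 ± 0.29), while Rpl10 changed by -0.30 ± 0.08, lost without P-body replicate 1 (-0.12), and human RPL10 by -0.74 ± 0.06 in HEK293T and 1.08 ± 0.08 in liver bud progenitors. RPL3L, a paralog of RPL3 used in striated muscle, had 0 counts in the liver bud and neuron cytoplasm libraries, 1 and 2 counts in liver bud P-bodies and 4 and 11 in neuron P-bodies, and no fold is given. Reads of near-identical copies could have been divided between members and their relatives, so values of RPL39L and RPS27L in particular are uncertain.

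Members with a pyrimidine run at a listed start were lower than those without in HEK293T. The medians were -1.64 over 46 genes and -1.07 over 16 genes among those with at least 20 CPM. The group without a run includes RPL9, RPL10A and RPL27, whose windows hold a pyrimidine stretch further on. It is therefore not a group of members known to lack the motif. In neurons the medians were -0.66 over 32 and -0.36 over 11 genes, and in liver bud progenitors 0.86 over 38 and 0.96 over 15 genes. The ranges overlapped widely in each cell type, from -2.89 to -0.42 with a run and from -2.61 to 0.80 without in HEK293T. RPL7L1 and RPS27L, which both lack a run in the windows shown above, lay towards opposite ends of the HEK293T changes.

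Coding GC content went with the changes in liver bud progenitors more than elsewhere. Spearman's rho across members with at least 20 CPM was -0.50 over 66 genes for liver bud progenitors, 0.30 over 77 for HEK293T, 0.14 over 55 for neurons and 0.21 over 67 for mESC. Coding length gave 0.38 in mESC and between -0.07 and 0.21 in the human cells, and mean CPM between 0.12 and 0.32 in all 4.

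**Figure D5:**
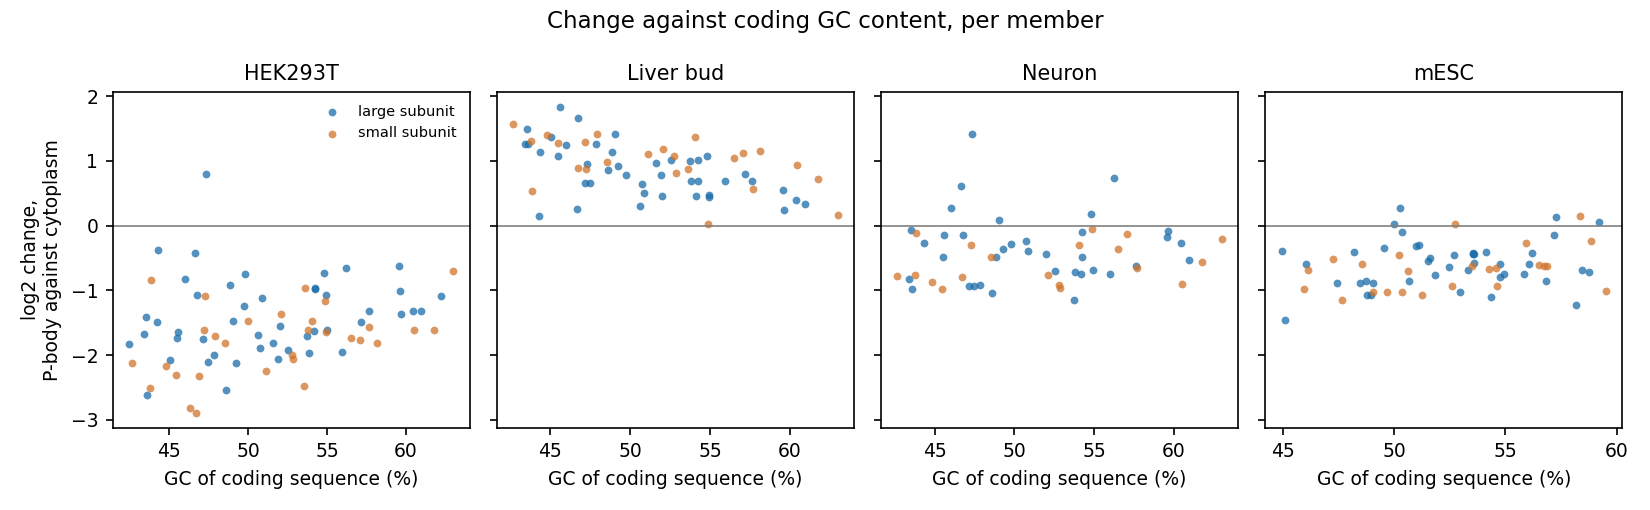
Log2 change, P-body against cytoplasm, against GC content of the coding sequence for members with at least 20 CPM in each cell type. Points are genes, blue for the large and orange for the small subunit. The points slope down in liver bud progenitors (rho -0.50) and slightly up in HEK293T (rho 0.30).

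Genes with related roles were set beside the members from a list of 20 other translation genes, 19 of them in the mouse table, and from the 78 mitochondrial ribosomal protein genes of each table. Of the translation genes 16 were depleted and 3 enriched for HEK293T, 1 and 15 for liver bud progenitors, 9 and 2 for neurons, and 10 and 5 for mESC, with medians of -1.11, 0.71, -0.50 and -0.28. The depleted shares were 80%, 5%, 45% and 52.6% in that order, against 22.8%, 17.1%, 14.1% and 20.6% of all genes. The enriched shares were 15%, 75%, 10% and 26.3%, against 19.3%, 21.4%, 14.6% and 25.8%. Only that of liver bud progenitors lay well above the share of all genes. EEF1A1, the factor that brings aminoacyl-tRNA to the ribosome and has a TOP mRNA, changed by -1.66 in HEK293T and 0.94 in liver bud progenitors, near the member medians. It changed by -0.58 in neurons and by -0.28 in mESC, where the member medians were -0.44 and -0.65. FAU, a fusion gene that yields RPS30 and falls outside the symbol rule, changed by -1.39 in HEK293T and by 1.12 in liver bud progenitors, and stood at -0.59 (neuron) and -0.23 (mESC) without passing the test. NPM1, a nucleolar chaperone of ribosome assembly, was enriched in all 4 cell types, at 1.02 (HEK293T), 1.48 (liver bud), 1.80 (neuron) and 1.21 (mESC). So was EIF4B, an initiation factor, at 0.64, 1.04, 0.56 and 0.34 in the same order, although in mESC it stood at -0.06 with library sizes alone. Of the 12616 symbols tested in all 4 cell types 10.2% were enriched in each, so this pattern is not particular to these genes. Of mitochondrial ribosomal protein genes 63 were depleted and 4 enriched for HEK293T (median -0.93), 1 and 40 for liver bud progenitors (0.67), 9 and 1 for neurons (-0.37), and 18 and 8 for mESC (-0.28). Set against the shares of all genes printed above, the 9 depleted in neurons (11.5%) were fewer than the 14.1% of all genes, and the 18 depleted in mESC (23.1%) were close to the 20.6% of all genes. In HEK293T 80.8% were depleted, and in liver bud progenitors 1.28% were depleted and 51.3% enriched. The enriched shares in HEK293T (5.13%), neurons (1.28%) and mESC (10.3%) lay below those of all genes.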

How the data were processed

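The tables deposited by the authors hold unnormalized read counts, 1 row a gene symbol, for RNA of sorted P-bodies and of cytoplasm, aligned to hg38 or mm10 and with genes under 10 reads over all samples removed. Per the study's methods, snapTotal-seq reads went through an nf-core pipeline with salmon and refGene annotation, and Smart-seq reads through another aligner and counter. Which of these made the polyA columns is not given in the sources used here. Deposited tables of DESeq2 fold changes and p-values per cell type were not used. Groups came from the labels, and no further column of per-sample values was left unused (0).

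Counts were tested by quasi-likelihood in edgeR 4.0.16 (R 4.3.3, TMM scaling, no covariate, two-sided) on the 4 libraries of a cell type, the 4 cytoplasm libraries of neurons and liver bud progenitors, or their 8 libraries for the interaction, leaving out genes with 0 counts throughout. A gene was called at an adjusted p under 0.05 (Benjamini-Hochberg, over all genes). Standard errors were the log2 change divided by the root of the F statistic. CPM values of members carry the TMM scaling of their own fit. Those of cell type markers and of the floor are scaled by library totals alone. Floors cover counting error only, as the reads carry no molecular identifiers. On simulated counts, 99% to 100% of 200 genes changed by 1.58 on the log2 scale were recovered, with 4 to 12 false calls.

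The members and lists were chosen with earlier results of these data known. Named were members beyond the fences or the 3 furthest on a side, a fixed set of paralog pairs, the 3 with the most cytoplasm CPM, members called against the median, and the 3 extremes of the last comparisons. A few genes that this rule or the lists take are not reported here. Coding length and GC content came from GENCODE 44 and M21, and starts from RefSeq. The alternatives tried were RLE size factors, TMM without members, library sizes alone, DESeq2 1.42.0, filterByExpr, no ribosomal RNA genes, a fit of all human libraries, a replicate block and leaving out each library. Adding processed copies (30 human, 7 mouse) to their parents was chosen after seeing the data.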

Additional observations from a re-analysis of the deposited data

Results flagged for a closer look

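An interaction set neuron P-body enrichment against that of liver bud progenitors, 2 libraries per group. It passed the threshold for 64 of 83 members, each of them lower in neurons (edgeR, adjusted p under 0.05), so these members differed between the cell types by a test of the difference itself. Groups of 2 libraries are too small for a check of single libraries far from the others.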

How the results depend on the processing

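Counts of calls stayed within 1.5 times under most alternatives, and DESeq2 changed none beyond that. With library sizes alone, enriched neuron members numbered 5, enriched mESC members 0, members higher in neuron cytoplasm 16 and lower 31, and members with higher enrichment in neurons 2, and the member medians were -0.28 in neurons, -1.05 in mESC, -1.03 for the interaction and, with its sign reversed, -0.18 in cytoplasm. Named mouse members reversed there were Rpl7l1 (-0.13), Rpl29 (-0.26) and Rps2 (-0.26). With filterByExpr, 1 mESC member was enriched and 1 member had higher enrichment in neurons. The HEK293T median moved by more than its small replicate spread, to -1.53 with RLE factors or DESeq2, -1.75 with library sizes alone, -1.60 with TMM without members or without ribosomal RNA genes, -1.56 with filterByExpr and -1.49 with all human libraries in 1 fit. Leaving out 1 library gave HEK293T medians from -1.60 to -1.52, 1 to 6 enriched and 21 to 44 depleted neuron members, 1 to 3 enriched mESC members, 9 to 16 members lower in neuron cytoplasm (9 without liver bud cytoplasm replicate 1), and 0 to 1 with higher enrichment in neurons (1 without neuron P-body replicate 1). The large minus small subunit median was 0.45 in HEK293T and, reversed, -0.12 in neurons over members with at least 100 CPM. When 1 library was left out it ranged between -0.25 and -0.20 (liver bud) and between -0.015 and 0.098 (mESC, reversed without P-body replicate 1). In those fits the lone library is assumed to vary like the other group. For named members, 1151 of the repeated values kept direction and side of the threshold, 34 lost their call, 14 gained one and 3 reversed. The cause of these changes was not tested.

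The fits with the replicate number as a block gave 40 depleted neuron members and 66 with lower neuron enrichment, and no other count moved by over 1.5 times. Replicates with the same number correlated at -0.09 (HEK293T), 0.06 (liver bud), 0.13 (neuron) and -0.04 (mESC). With 2 replicates this cannot show whether libraries of the same number came from the same preparation, from which P-bodies were sorted. The main fits took no pairs because the study's methods use none. Under the block Rpl39l lost its call in mESC (-1.504). With 0.1 or 2 CPM added, 54 of the group means of the paralog ratios moved by more than their replicate spread and 42 did not. The order of the fractions was kept in 23 comparisons and turned in 1, RPL3L to RPL3 in liver bud progenitors (P-body minus cytoplasm -0.05, and 0.90 with 0.1 CPM added). Members with few counts, such as RPL3L and RPL39L, could not be resolved at this depth.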
